A study of Mus musculus with 2 samples.

Results

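Microfold-like cells are rare epithelial cells of the thymic medulla that carry transcripts of gut microfold cells. Here they were 104 of the 11774 barcodes that passed the quality limits, with 40 of 3588 in library 1 and 64 of 8186 in library 2. A barcode was taken when it held at least 500 genes, at least 1000 UMIs (unique molecular identifiers, 1 per captured transcript) and at most 10% mitochondrial UMIs. At least 3 of the 6 genes Ccl20, Gp2, Ccl6, Ccl9, Pglyrp1 and Fabp1 had to be detected, and together to reach 20 UMIs per 10000. A member also held at least 1 UMI of Epcam, Krt8, Krt18 and Cldn4 together, at most 1 UMI of Aire, and fewer than 20 UMIs per 10000 of the collagens Col1a1, Col1a2 and Col3a1. The members were therefore chosen by measured values, and the levels of these 14 genes are given as description only.

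Both libraries were made with 10x Genomics 3' chemistry from mouse thymic stroma of 1 genotype, E2F_M11, in which CRISPR-Cas9 was used to delete 2 E2F binding sites from the proximal promoter of Foxn1. Collagenase/dispase with DNase freed the cells, red cells were lysed, and beads took out CD45-positive cells, which sets how many blood cells remain. All cells described here carry that deletion, the age and sex of the mice and the number of animals are not given in the labels, and the labels do not say whether the libraries came from separate mice. Wild-type stroma was not analysed here, so no value below measures the effect of the deletion. The comparisons ask instead how microfold-like cells differed from 3 other epithelial classes of the same libraries. P-values here rest only on how class differences varied between these libraries, a spread that may be technical.

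Microfold cells, or M cells, sit over gut lymphoid follicles and carry luminal particles to the immune cells below. They arise when RANK ligand from the stroma engages the receptor RANK, which activates NF-kB and then the transcription factors Spi-B and Sox8. Medullary thymic epithelial cells (mTEC) present self-antigens to developing T cells, partly through the regulator Aire, and some of them, called mimetic cells, take on the transcriptional programme of a peripheral cell type such as tuft cell, keratinocyte, enterocyte or M cell. Of the rule genes, Ccl20 encodes the chemokine that attracts CCR6-positive lymphocytes and Gp2 the glycoprotein with which M cells bind bacterial fimbriae. Ccl6 and Ccl9 encode CC chemokines, Pglyrp1 a peptidoglycan recognition protein, and Fabp1 the fatty acid binding protein of liver and small intestine.

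The 250 bases before a RefSeq transcription start are shown for the rule genes Ccl20, Pglyrp1, Ccl9 and Ccl6, and the M cell regulator Spib. These genes were read together in the members, and NF-kB and ETS factors such as Spi-B are the regulators known for M cells. The windows of Gp2, Fabp1, Sox8 and Tnfaip2 were searched but are not shown. The sequences are from RefSeq, build GRCm38.p6, in the direction of the gene, and 9 of 9 symbols looked for were matched. In the mm10 annotation Pglyrp1 starts earlier, at chr7:18871331, so its window lies inside the annotated gene. The windows of Gp2, Fabp1 and Tnfaip2 run past the annotated starts of those genes. Capitals mark matches to the NF-kB consensus or to the ETS sequence GAGGAA, each searched on both strands. Other ETS sequences were not searched, and the windows may hold them.
Ccl20: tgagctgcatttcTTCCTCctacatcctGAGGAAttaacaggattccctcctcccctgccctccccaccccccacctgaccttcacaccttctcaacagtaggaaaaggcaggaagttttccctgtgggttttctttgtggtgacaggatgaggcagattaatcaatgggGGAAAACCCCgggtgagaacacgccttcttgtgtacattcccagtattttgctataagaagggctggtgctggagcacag
Pglyrp1: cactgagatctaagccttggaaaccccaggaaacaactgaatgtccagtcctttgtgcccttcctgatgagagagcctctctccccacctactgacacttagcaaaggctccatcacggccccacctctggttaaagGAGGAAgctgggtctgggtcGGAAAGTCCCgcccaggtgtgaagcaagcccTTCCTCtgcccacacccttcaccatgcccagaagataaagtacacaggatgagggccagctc
Ccl9: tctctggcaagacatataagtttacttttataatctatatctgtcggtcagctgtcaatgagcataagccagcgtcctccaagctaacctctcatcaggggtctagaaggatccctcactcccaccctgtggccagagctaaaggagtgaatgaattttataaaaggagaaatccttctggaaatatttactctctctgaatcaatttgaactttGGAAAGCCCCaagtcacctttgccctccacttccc
Ccl6: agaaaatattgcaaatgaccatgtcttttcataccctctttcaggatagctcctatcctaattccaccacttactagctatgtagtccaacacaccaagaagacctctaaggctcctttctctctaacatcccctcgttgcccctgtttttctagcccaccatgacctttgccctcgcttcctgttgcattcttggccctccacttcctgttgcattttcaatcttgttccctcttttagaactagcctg
Spib: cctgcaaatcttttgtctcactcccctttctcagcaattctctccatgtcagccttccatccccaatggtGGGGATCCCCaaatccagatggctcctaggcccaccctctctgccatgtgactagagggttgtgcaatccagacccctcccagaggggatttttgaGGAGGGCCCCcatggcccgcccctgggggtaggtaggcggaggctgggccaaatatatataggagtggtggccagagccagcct
The Ccl20 window (chr1:83116516-83116765, plus strand) held 1 NF-kB match, starting 80 bases before the start, and 2 GAGGAA matches. The Pglyrp1 window (chr7:18884440-18884689, plus strand) also held 1 NF-kB match, 93 bases before the start, with a GAGGAA match on either side of it. Ccl9 (chr11:83578637-83578886, minus strand) held 1 NF-kB match 35 bases before the start. Its neighbour Ccl6 (chr11:83593088-83593337, minus strand) held no match to the NF-kB consensus or to GAGGAA. Both windows share the 13-base run gccctccacttcc near their starts. The Spib window (chr7:44532072-44532321, minus strand) held 2 NF-kB matches. Of the 9 windows searched, which added Gp2, Fabp1, Sox8 and Tnfaip2, 5 held the NF-kB consensus and 3 held GAGGAA. The Gp2 and Sox8 windows held neither, Fabp1 held 1 GAGGAA match only and Tnfaip2 1 NF-kB match only. Among all 32851 promoter windows of the same length, 7.25% held the NF-kB consensus and 23.3% held GAGGAA. A match describes letters in a window and not a bound site, and no factor binding was measured.

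Library 1 was read more deeply per barcode than library 2. The matrices held 41075328 UMIs over 5110 barcodes and 42583831 over 19163, and median UMIs per passing barcode were 8727 and 1874. Members had medians of 8585 and 1646.5 UMIs, with ranges of 1039 to 41782 and 1008 to 38234. Summed over members the libraries gave 499581 and 276041 UMIs, of which the deepest cell supplied 8.36% and 13.9%. The libraries shared 30 barcodes, 13 after the quality limits, and none was a member. No doublet caller was run, and no doublets were removed.

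Members made up 1.11% of passing barcodes in library 1 (95% exact binomial interval 0.798% to 1.52%) and 0.782% in library 2 (0.603% to 0.997%), a mean of 0.948% ± 0.235 (SD, n = 2). Of barcodes with an epithelial UMI and low collagen they were 2.99% and 2.21%. The intervals cover counting error only. The intervals of the libraries overlapped, and the shallower library had the lower share.

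The level of the 6 genes together ran from the limit to much higher values. The member closest to the limit held 20.5 UMIs per 10000 in library 1 and 20.4 in library 2, and the nearest barcodes outside held 17.6 and 19.5. The median member held 83.1 and 95.5, and the highest 638 and 462. With the gene number as required but the level too low there were 15 and 11 further barcodes, and with 2 genes at a sufficient level 8 and 18. Only the Aire limit kept out 7 and 3 barcodes, and only the epithelial requirement 1 and 1. In library 2, 3 members had at most 5 UMIs of the 6 genes, so that at this depth the class of single cells there is less certain than in library 1.

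Ccl20 was the widest spread in library 1, with a UMI in 36 of 40 members, and was found in 50 of 64 in library 2. Its summed level was 6964 and 2344 CPM (UMIs of the gene per 1000000 UMIs summed over the members of a library), and 1 cell supplied 54.8% and 48.4% of it. Pglyrp1 was detected in 35 and 59 members at 4708 and 7379 CPM. Ccl9 had a UMI in 33 and 53 members at 1129 and 1156 CPM, and Ccl6 in 28 and 42 at 2022 and 1159 CPM. Gp2 was seen in 16 and 18 members at 705 and 1221 CPM. Fabp1 was seen in 21 and 22 at 857 and 1369 CPM, with 60.1% of the library 2 UMIs in 1 cell. The epithelial genes Epcam and Krt8 each had a UMI in 37 and 54 members, Krt18 in 31 and 35, and Cldn4 in 22 and 21.

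**Figure D1:**
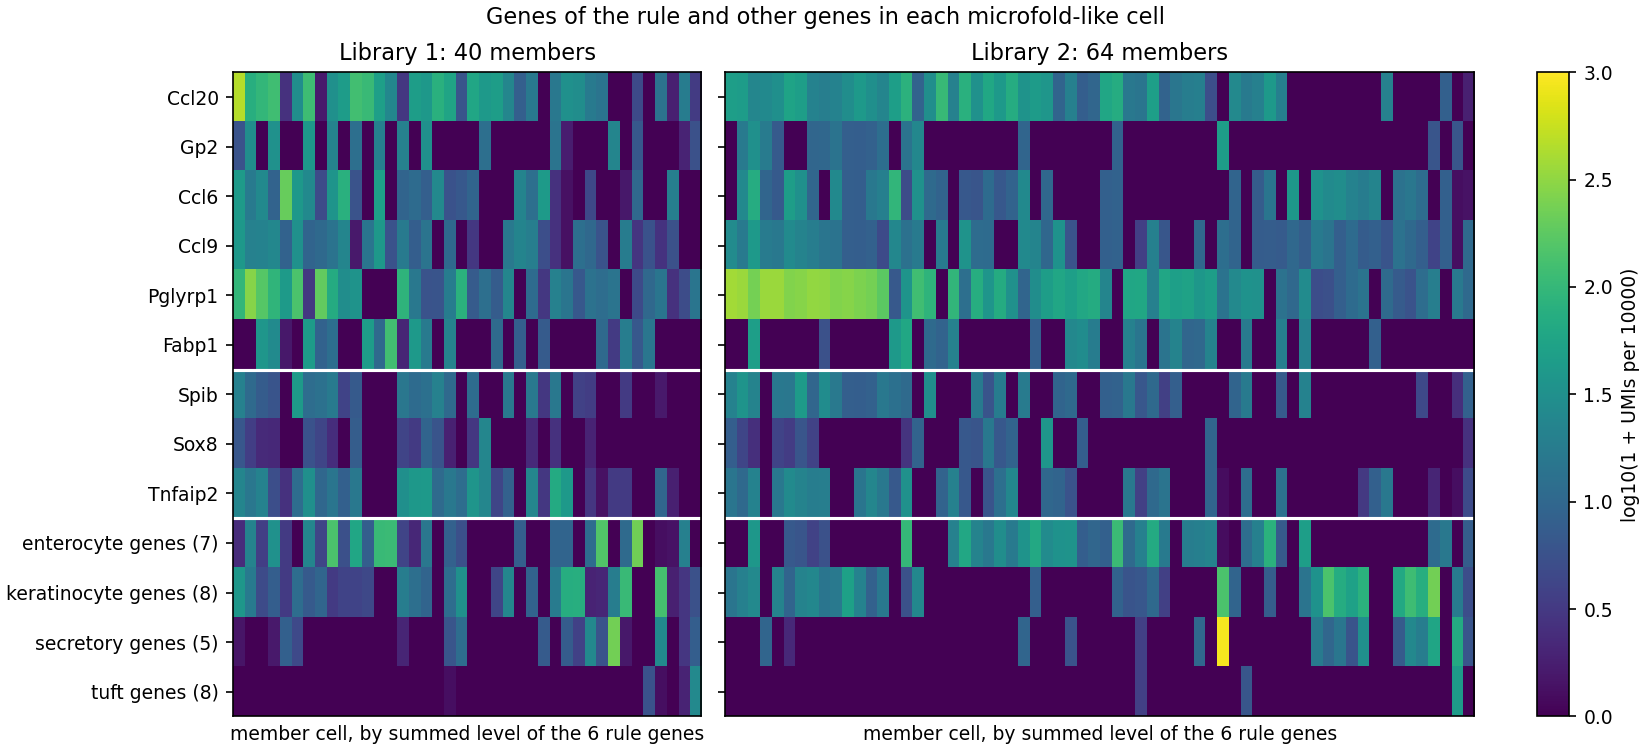
Genes in each member. Columns are the 40 and 64 members, ordered by the summed level of the 6 rule genes, and colour gives log10(1 + UMIs per 10000) of each rule gene, of Spib, Sox8 and Tnfaip2, and of 4 marker groups of other types. Most members without Ccl20 in library 2 carry keratinocyte markers.

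The combinations of markers varied among members. All 6 genes were detected in 6 members of library 1 and 2 of library 2, 5 genes in 11 and 13, 4 in 9 and 20, and 3 in 14 and 29. Ccl20 and Gp2 occurred together in 15 and 15 members, and 3 and 11 members had neither. The quartet of Ccl20, Ccl6, Ccl9 and Pglyrp1 without the other two was the combination of 6 and 10 members, and with Gp2 added of 5 and 11. The combination of Ccl20, Pglyrp1 and Fabp1 alone was held by 1 and 8 members. Of the Gp2-positive members, 12 of 16 and 18 of 18 also held Ccl9. Of the Fabp1-positive members, 15 of 21 and 6 of 22 held Ccl6. These counts describe cells chosen for such combinations and have no test.

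The members of library 2 differed among themselves. In 15 of them Pglyrp1 reached at least 100 UMIs per 10000, a limit set after its values were seen. Of these 15, all held Ccl20, 12 Gp2, 13 Spib and 8 Sox8, and at 10 UMIs per 10000 or more 12 had keratinocyte markers and 1 had enterocyte markers. The other 49 held Ccl20 in 35 cells, Gp2 in 6 and Spib in 23, with keratinocyte markers at that level in 12 and enterocyte markers in 25. Library 1 had 4 cells with such Pglyrp1, all with Ccl20 and Spib and 1 with Gp2. Of the 14 members of library 2 without Ccl20, 12 also had keratinocyte markers at that level, 8 had secretory markers, 3 held Spib and none Sox8. Of the 50 with Ccl20, 12 had such keratinocyte markers, none secretory markers, 33 held Spib and 18 Sox8. In library 1 only 4 members lacked Ccl20, of which 2 held Spib. A level of 10 UMIs per 10000 is reached with few UMIs in library 2, where the median member depth was 1646.5 UMIs. Keratinocyte-like cells of that library had a median of 139 UMIs per 10000 of keratinocyte markers, and members 5.19.

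Each marker was next read in cells that it had not helped to choose, by applying the rule with the other 5 genes. Ccl20 had a UMI in 23 of 27 such cells in library 1 (85.2%, exact interval 66.3% to 95.8%) and in 33 of 47 in library 2 (70.2%, 55.1% to 82.7%). With every cell thinned to 1000 UMIs the Ccl20 shares were 63.0% and 68.1%, against 5.17% and 4.22% in Aire-high mTEC and 0.0706% and 0.938% in fibroblasts. The fibroblasts, which should lack these genes, show the level of free RNA, and had median depths of 8905 and 1974 UMIs, close to those of the members. Pglyrp1 was held by 24 of 29 and 31 of 36 held-out cells, or 62.1% and 83.3% after thinning. It was the least restricted marker, with thinned shares of 19.2% and 11.5% in keratinocyte-like cells and 10.9% and 7.17% in Aire-high mTEC.

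Ccl9 was present in 26 of 33 and 33 of 44 held-out cells, and Ccl6 in 23 of 35 and 27 of 49. Their thinned shares were 51.5% and 59.1% for Ccl9 and 40% and 40.8% for Ccl6, while no comparator class exceeded 3.85% for Ccl9 and 2.60% for Ccl6. Gp2 was present in 12 of 36 and 15 of 61 held-out cells, with thinned shares of 30.6% and 16.4%, and in 10.4% of tuft-like cells of library 1 but none of library 2. Fabp1 was present in 15 of 34 and 12 of 54, with thinned shares of 23.5% and 20.4% and at most 3.34% in any comparator class. All 6 shares lay above those of the other classes in both libraries, and Gp2 was found in 33.3% and 24.6% of the cells it did not choose before thinning. The held-out cells are all members and the comparator classes exclude members, so these shares describe the cells and are no independent support for the label. Genes outside the rule are given below.

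**Figure D2:**
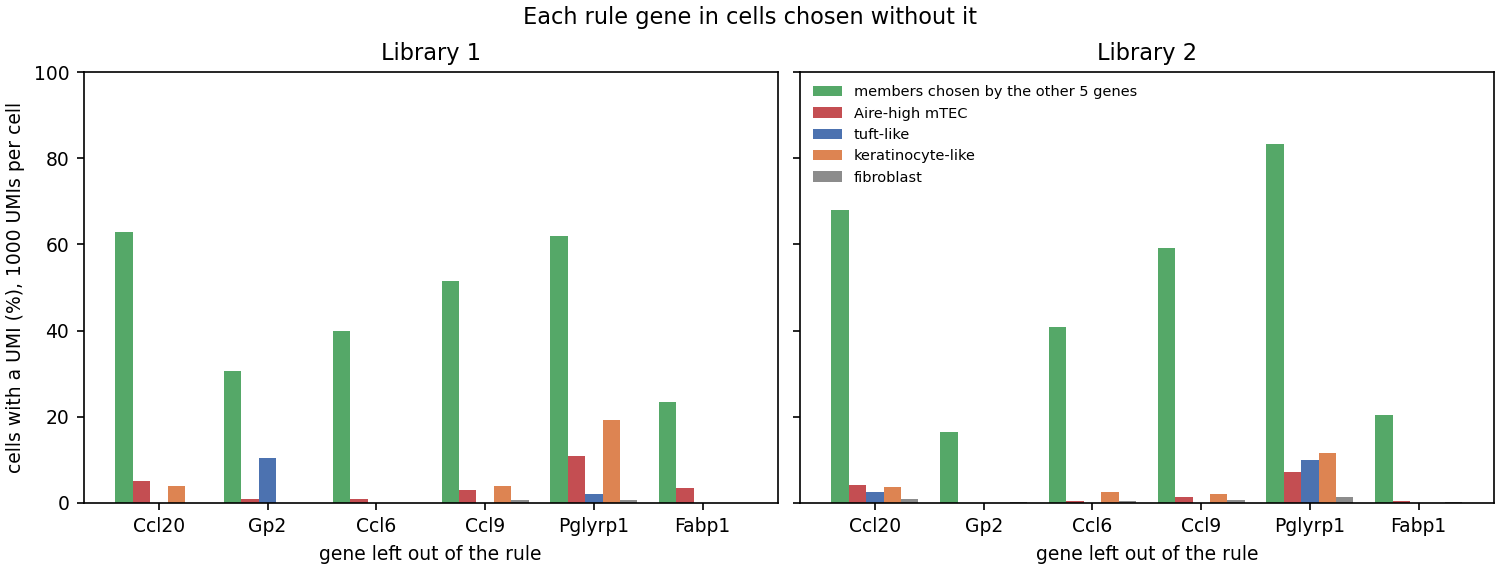
Held-out markers. For each gene and library the bars give the percent of cells with at least 1 UMI at 1000 UMIs per cell. They are drawn for cells chosen by the other 5 genes, the comparator classes and fibroblasts. The chosen cells stand highest for every gene in both libraries, and keratinocyte-like cells have their highest share for Pglyrp1.

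Members were compared with Aire-high mTEC (at least 2 Aire UMIs, 329 and 237 cells), tuft-like cells (48 and 81) and keratinocyte-like cells (26 and 192) of the same libraries. The last 2 classes had to hold at least 3 of 7 tuft genes (Trpm5, Avil, Dclk1, Il25, Gnat3, Alox5, Sh2d6) or 3 of 8 keratinocyte genes (Krt10, Krt1, Krtdap, Sbsn, Lypd3, Spink5, Ivl, Dsg1a). UMIs were summed per library and class, and 9368 genes outside all rules were tested with edgeR's quasi-likelihood test, with the library as a block and p-values adjusted by Benjamini-Hochberg over these genes. A gene is called higher or lower where the adjusted p is at most 0.05. Log2 fold changes are microfold-like minus comparator, with standard errors (SE). Median depths of the comparators were 20257 and 6272, 13568.5 and 2284, and 14674.5 and 2203 UMIs, in that order.

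Against Aire-high mTEC, 16.5% of genes were called, 774 higher (8.26%) and 776 lower (8.28%). Against tuft-like cells the share was 16.4%, with 990 higher (10.6%) and 549 lower (5.86%), and against keratinocyte-like cells 7.26%, with 419 higher (4.47%) and 261 lower (2.79%). Higher against all 3 were 177 genes, or 1.89%, and lower against all 3 were 7, or 0.0747%. The 3 comparisons share the same members, so their results are not independent. The median log2 fold change over all genes tested was -0.06, -0.00 and -0.04. These shares and medians over all genes are the ones to set beside the list counts below.

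Other cell types' markers were read in the members beside these results. Macrophage and monocyte markers reached 382 and 898 CPM in sum, with 8 and 4 of 11 genes detected, and Adgre1 and C1qc at 0 in both libraries. Csf1r, C1qa, C1qb, Fcgr1 and Fcer1g had UMIs in library 1 and none in library 2. Lyz2 supplied most of the sum, with 141 and 242 UMIs in 20 and 41 members. At 1000 UMIs per cell it was held by 25.0% and 56.3% of members, against 28.3% and 27.0% of Aire-high mTEC and 0.212% and 1.32% of fibroblasts. Neutrophil markers summed to 1105 and 181 CPM, mainly S100a8 (9 and 14 members), with Csf3r, Retnlg, Mpo and Elane at 0 in both. Ly6g and Cxcr2 had UMIs in library 1 only. Ptprc, which encodes CD45, had a thinned share of 17.5% and 18.8% in members and of 5.29% and 20.96% in fibroblasts. T cell markers in sum were at 152 and 333 CPM, against 116 and 586 in fibroblasts, with 7 of 8 genes detected and Ptcra at 0. B cell, dendritic and endothelial markers were each at or below 70.1 CPM. Erythroid transcripts reached 1902 CPM in library 2, in 18 members, and 30.0 CPM in library 1. Fibroblast markers stood at 262 and 504 CPM. Any UMI of 7 blood cell genes was held by 29 and 32 members, and their part in the results was read only by leaving such cells out of all classes. That left 11 and 32 members and 4719 genes to test. Of the M cell programme, described next, 7 of 15 genes were then higher and 2 lower than in Aire-high mTEC, and 11 and 11 higher than in the other classes.

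Markers of other mimetic types were also present. Keratinocyte markers summed to 2538 and 4025 CPM over 31 and 36 members, and enterocyte markers to 3031 and 2224 CPM over 28 and 37. In each library 1 cell supplied much of these sums, 34.9% and 48.1% for keratinocyte and 37.8% and 60.9% for enterocyte markers. Secretory markers were at 663 CPM in library 1 and 13650 in library 2, where 91.4% came from 1 cell. Tuft markers stood at 40.03 and 536 CPM, 98.6% of the latter from 1 cell. At a level of at least 10 UMIs per 10000, enterocyte markers were found in 12 and 26 members, keratinocyte markers in 14 and 24, and secretory markers in 4 and 8. The full rule for tuft-like or keratinocyte-like cells was also met by 5 and 7 members. Of 5 cortical markers Psmb11 was at 0 in both libraries and the other 4 were detected, in 25 and 31 members. In sum they reached 346 and 348 CPM, against 728 and 900 in Aire-high mTEC and 1057 and 1046 in fibroblasts. Leaving out the members that met another class rule raised the calls against keratinocyte-like cells from 680 to 1109.

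Most measured genes of the M cell programme outside the rule were higher in members. Of 16 tested among 20 listed, 12 were called higher against Aire-high mTEC and 1 lower, with a median log2 fold change of 1.74. Against tuft-like cells 12 were higher (median 2.61), against keratinocyte-like cells 12 (median 2.84), and none was lower in either. Spib, encoding the ETS factor Spi-B that M cells require, stood at 713 and 717 CPM in members. Aire-high mTEC had 127 and 114 CPM, tuft-like cells 309 and 385, and keratinocyte-like cells 10.6 and 51.5. Both libraries gave nearly the same member level, above every comparator. The log2 fold change was 2.58 ± 0.40 (SE) against Aire-high mTEC (adjusted p = 0.00508) and 4.62 ± 0.47 against keratinocyte-like cells (0.00208). Against tuft-like cells it was 1.33 ± 0.39 and missed the threshold (0.0515), although 9 of 13 alternatives called it higher. Spib UMIs were found in 24 and 36 members, and at 1000 UMIs per cell in 30.0% and 43.8%, with fibroblasts at 2.12% and 1.93%.

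Sox8, the Sox factor that cooperates in M cell maturation, was at 170 and 130 CPM in members and at 10.1 and 4.53 in Aire-high mTEC. It was detected in 18 members of each library. Its log2 fold change was 4.29 ± 0.48 (adjusted p = 0.00226), and it was called higher against tuft-like cells (2.49 ± 0.51, 0.0145) and keratinocyte-like cells (5.38 ± 0.70, 0.00467) too. Spib or Sox8 had a UMI in 25 of 40 and 42 of 64 members, and both in 17 and 12. Tnfaip2, which encodes the protein M-Sec used as an M cell marker, was at 1421 and 956 CPM, and the other classes ranged from 15.4 to 196 CPM. It rose by 3.31 ± 0.36 over Aire-high mTEC (0.0022), 6.17 ± 0.46 over tuft-like cells (0.00025) and 3.32 ± 0.37 over keratinocyte-like cells (0.00273). In library 2, 45.8% of its UMIs were in 1 cell. After thinning, 47.5% and 39.1% of members and also 13.8% and 9.87% of fibroblasts held it.

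**Figure D3:**
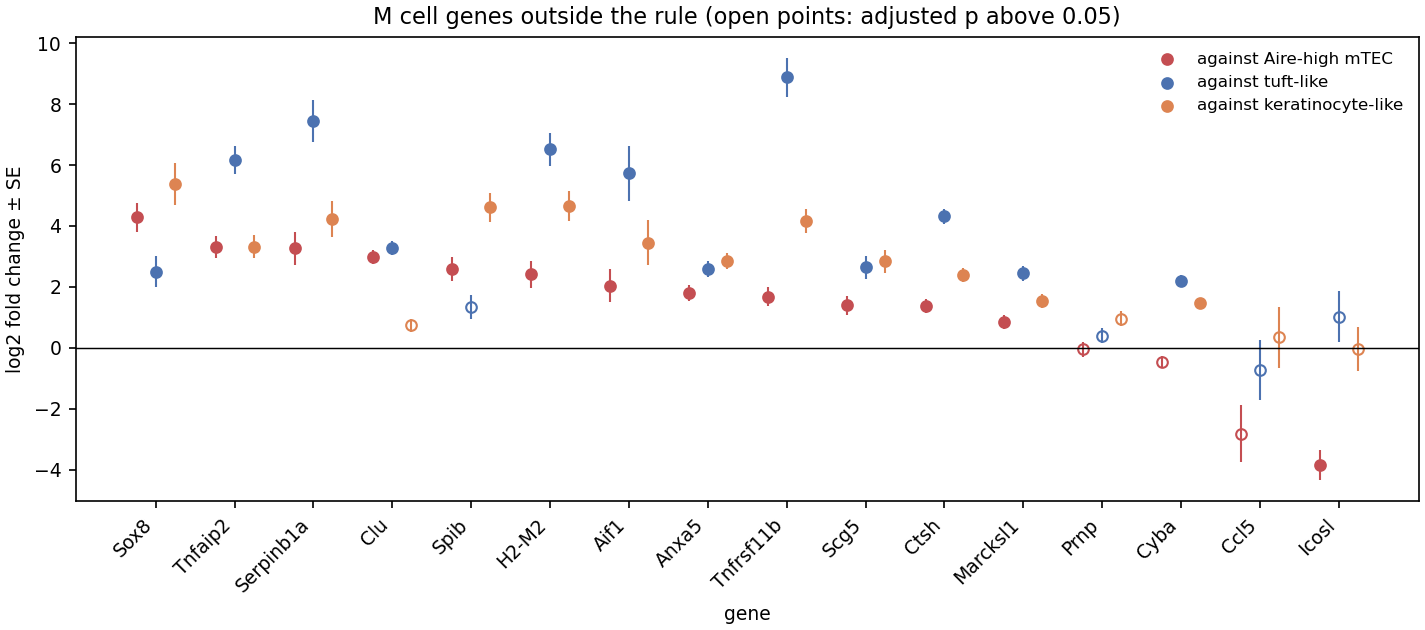
M cell programme genes outside the rule. Points are log2 fold changes of microfold-like cells over each comparator and bars are standard errors; filled points are called (adjusted p at most 0.05), and Icosl lies at the low end against Aire-high mTEC.

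**Figure D4:**
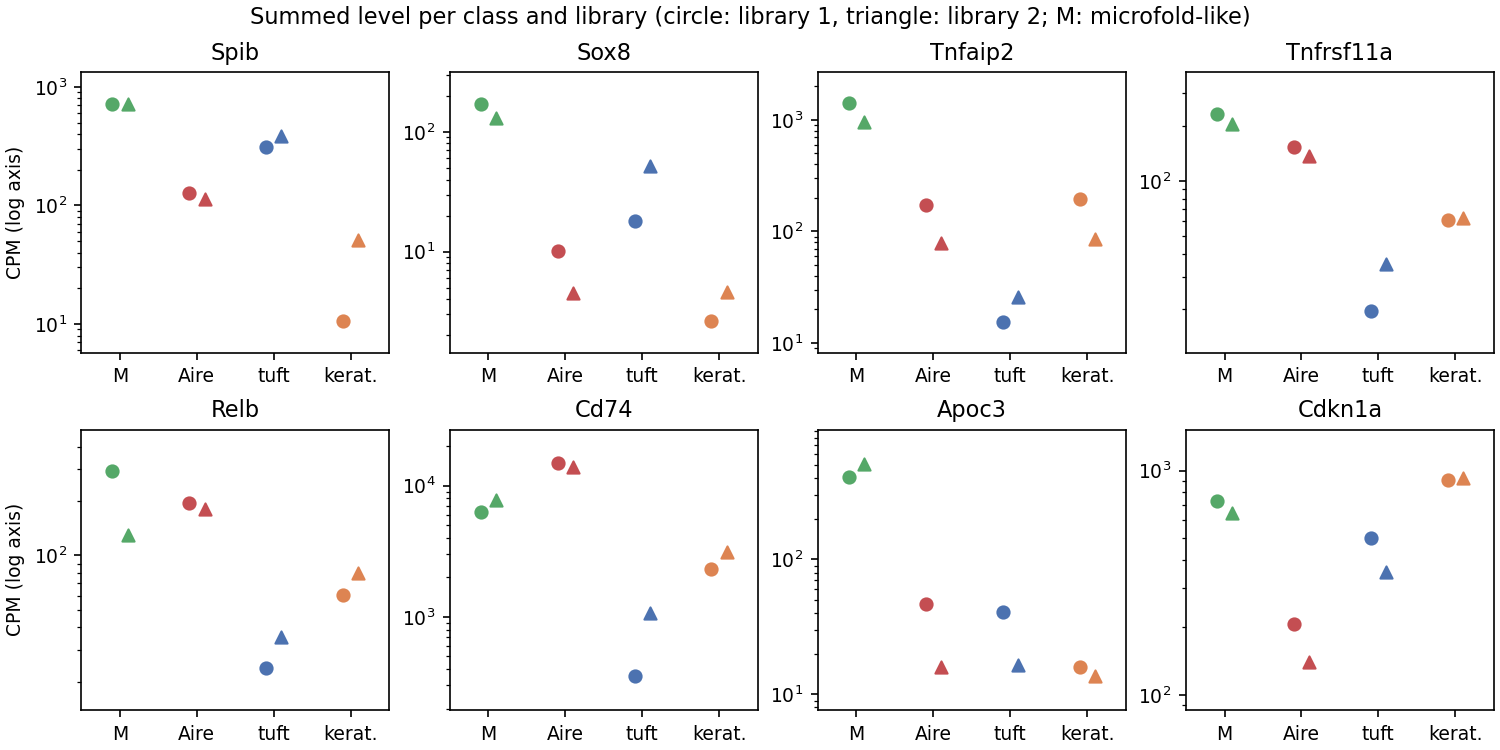
Levels of 8 named genes by class. Each point is the CPM of 1 library (circle, library 1; triangle, library 2) on a log axis, for microfold-like cells (M) and the 3 comparators; Spib, Sox8, Tnfaip2 and Apoc3 are highest in microfold-like cells in both libraries, while Cd74 is highest in Aire-high mTEC.

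Several further genes of the programme were called against all 3 classes. Serpinb1a, an inhibitor of neutrophil proteases, was at 6323 and 3543 CPM, in 37 and 63 members, with log2 fold changes of 3.26 ± 0.55, 7.45 ± 0.70 and 4.23 ± 0.58. Tnfrsf11b, which encodes osteoprotegerin, the soluble decoy receptor of RANK ligand, was at 356 and 420 CPM in 28 and 30 members. Aire-high mTEC had 134 and 108 CPM of it, for a log2 fold change of 1.68 ± 0.32 (adjusted p = 0.0111), and tuft-like cells held 1 UMI, a ratio of 433 with a counting interval of 77.1 to 17159. H2-M2, a non-classical MHC class I gene, had 1509 and 3000 CPM, and rose by 2.41, 6.51 and 4.67. Anxa5, Aif1, Ctsh, Scg5 and Marcksl1 were called in the same way, with log2 fold changes over Aire-high mTEC of 1.80, 2.04, 1.37, 1.39 and 0.85. For Aif1 the libraries were far apart, at 208 and 14.5 CPM.

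Not all of the programme was high. Clu, encoding the chaperone clusterin, was at 1960 and 2688 CPM and higher than in Aire-high mTEC (2.99) and tuft-like cells (3.28), but against keratinocyte-like cells the value of 0.74 ± 0.22 had an adjusted p of 0.0815. Cyba, a subunit of the NADPH oxidase, was called higher than in tuft-like (2.18) and keratinocyte-like cells (1.45) and not against Aire-high mTEC (-0.47, adjusted p = 0.12). Prnp and Ccl5 were called in no comparison. Icosl, the ligand of the costimulatory receptor ICOS, was lower than in Aire-high mTEC, at 12.01 and 3.62 CPM against 131 and 137 (-3.85 ± 0.49, adjusted p = 0.00291). Esrrg, Atoh8, Psg18 and Umod had too few counts to be tested. Without the cells that held blood cell UMIs, Spib against Aire-high mTEC kept a log2 fold change of 2.29 but an adjusted p of 0.0835.

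Of the RANK, lymphotoxin and NF-kB pathway, more genes were called higher against tuft-like cells than against the other classes, a difference that was not tested. Against Aire-high mTEC 2 of 20 were higher and 1 lower (median 0.18), against tuft-like cells 11 were higher (median 1.48) and against keratinocyte-like cells 5 (median 0.90), with none lower. Over all genes 16.5% were called against Aire-high mTEC, and the list count there was near that share. The shares of all genes called higher were 8.26%, 10.6% and 4.47%, also largest against tuft-like cells. Tnfrsf11a, which encodes RANK, was at 230 and 203 CPM in members and 153 and 137 in Aire-high mTEC, a log2 difference of 0.60 ± 0.25 (adjusted p = 0.134). It was at 19.5 and 35.2 CPM in tuft-like cells (3.33 ± 0.31, 0.000645) and 60.8 and 62.9 in keratinocyte-like cells (1.98 ± 0.28, 0.00583). Relb, the subunit of non-canonical NF-kB, had 292 and 130 CPM in members, on either side of the 196 and 182 of Aire-high mTEC, and was higher than in tuft-like (3.17) and keratinocyte-like cells (1.72). Traf1, a signalling adaptor, was likewise called only against those 2 classes (3.83 and 2.67). Tnfaip3, an NF-kB target that restrains the pathway, and Rela were the genes called higher than in Aire-high mTEC (1.71 and 1.10), from 37 and 7 UMIs and from 19 and 19.

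Cd40, the receptor for CD40 ligand, was the gene called lower than in Aire-high mTEC. It was at 66.1 and 47.1 CPM against 160 and 156 (-1.41 ± 0.39, adjusted p = 0.0424), a call that was lost in 7 of 12 alternatives. In tuft-like cells it had 2 UMIs, a ratio of 33.9 with a counting interval of 8.86 to 288. Nfkb2, Nfkbia and Birc3, which are NF-kB genes and targets, were called higher only against tuft-like cells, or for Nfkbia also against keratinocyte-like cells (1.54 and 1.22). A difference called in one comparison and not in another was not tested as such.

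Chemokines and cytokines outside the rule moved in both directions. Of 22 tested, 3 were higher and 5 lower against Aire-high mTEC (median -0.14), 8 higher and 1 lower against tuft-like cells (median 2.57), and 3 higher and 1 lower against keratinocyte-like cells (median 0.18). Called in either direction over all genes were 16.5%, 16.4% and 7.26%. Cxcl16, the transmembrane ligand of CXCR6, was at 222 and 246 CPM and was called against all 3 classes (1.90 ± 0.25, 2.76 ± 0.30 and 1.38 ± 0.27). Il7, the cytokine that sustains thymocyte precursors, was at 98.1 and 86.9 CPM, above the 19.5 to 40.3 CPM of the other classes (1.26 ± 0.24, 2.41 ± 0.30 and 1.83 ± 0.29). Cxcl9 and Ccl17, which attract CXCR3- and CCR4-positive T cells, were lower than in Aire-high mTEC (-2.60 and -2.39). Members had 212 and 32.6 CPM of Cxcl9 against 878 and 647.

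Ccl21a, the CCR7 ligand that guides thymocytes into the medulla, was low in members. It stood at 16.01 and 54.3 CPM, against 318 and 529 in Aire-high mTEC, 86.6 and 237 in tuft-like cells and 172 and 602 in keratinocyte-like cells (-3.78, -1.98 and -3.28). The call against tuft-like cells held in 8 of 13 alternatives, with a fold of -0.01 at the other end. Ccl27a was lower than in Aire-high mTEC (-3.51). Both belong to families with near-identical copies, so their counts are uncertain. Ccl2 had 20 UMIs, in 2 and 5 members, and none in tuft-like or keratinocyte-like cells, at least 9.82-fold and 10.8-fold higher against the floor of 3 counts over both libraries. Cxcl5 was called higher than in Aire-high mTEC (4.98), but its UMIs were in 2 members of each library, and with at least 4 rule genes required the value was -5.28 (adjusted p = 0.552). Tnfsf11, which encodes RANK ligand itself, had no UMI in members.

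Part of the MHC class II genes were lower than in Aire-high mTEC and part higher than in the other classes. Of 14 genes of the class II pathway, 7 were lower and 1 higher than in Aire-high mTEC (median -1.10; none of 14 was called without the cells that held blood cell UMIs, median -0.75), while 11 were higher than in tuft-like cells (median 2.73) and 7 than in keratinocyte-like cells (median 1.29). Cd74, the invariant chain, had 6251 and 7810 CPM in members, 14799 and 13818 in Aire-high mTEC, 352 and 1063 in tuft-like cells and 2331 and 3104 in keratinocyte-like cells. The difference from Aire-high mTEC was -1.04 ± 0.33 (adjusted p = 0.064). Those from tuft-like and keratinocyte-like cells were 3.70 ± 0.36 (0.000817) and 1.55 ± 0.33 (0.029). Ciita, the class II transactivator, was at 44.0 and 25.4 CPM against 173 and 217 in Aire-high mTEC (-2.34 ± 0.40, 0.00766). The peptide loading genes H2-DMb2, H2-Oa and H2-Ob were lower than in Aire-high mTEC by the same test (-2.20, -1.91 and -2.83), with H2-Ob at 0 in library 2. Ctsb, a lysosomal protease, was the gene called higher (0.95 ± 0.23, held in 9 of 13 alternatives). Ctss, the protease that trims the invariant chain, was called higher than in tuft-like (3.37) and keratinocyte-like cells (1.67).

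Of 13 tested genes of MHC class I and costimulation, 0 were higher and 2 lower than in Aire-high mTEC, near the 16.5% called over all genes, and 5 were higher than in tuft-like cells. None was called against keratinocyte-like cells by edgeR, where 6 had an unadjusted p under 0.05 and DESeq2 called 3 (median 0.54). B2m was at 4019 and 5101 CPM in members and 4850 and 3632 in Aire-high mTEC (0.12 ± 0.19). The lower genes were Cd80, the ligand of CD28, at 30.0 and 29.0 CPM against 75.9 and 69.4 (-1.28 ± 0.31), and the immunoproteasome subunit gene Psmb10 (-1.09 ± 0.28). These calls held in 7 of 12 and 8 of 13 alternatives.

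**Figure D5:**
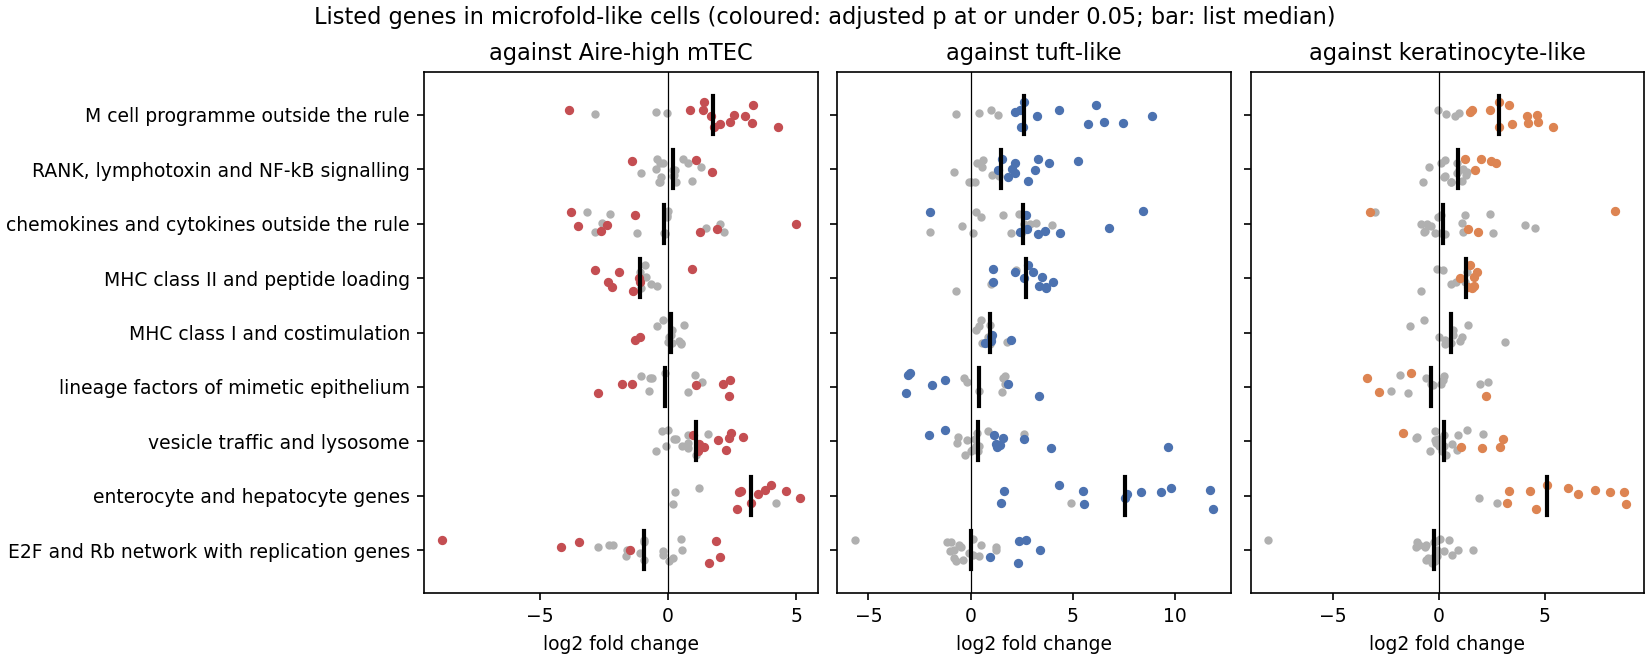
Gene lists by comparison. Each point is the log2 fold change of 1 tested gene, coloured where the adjusted p is at most 0.05, and the vertical bar is the list's median. The M cell programme has medians of 1.74, 2.61 and 2.84, while MHC class II genes have a median of -1.10 against Aire-high mTEC and 2.73 and 1.29 against the others.

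Vesicle and lysosome genes were called higher more often than lower. Of 23 tested, 10 were higher and none lower against Aire-high mTEC (median 1.08), where 8.26% of all genes were higher and 8.28% lower. Without the cells that held blood cell UMIs 2 of 20 were higher (median 0.79), beside 189 of all 4719 genes. Against tuft-like cells 8 were higher and 2 lower, beside 10.6% and 5.86% of all genes. For keratinocyte-like cells the counts were 4 higher and 1 lower, beside 4.47% and 2.79%. Lamp1, a lysosomal membrane protein gene, was called against all 3 (1.40 ± 0.21, 1.28 ± 0.21 and 1.06 ± 0.21). Ctsd, the lysosomal aspartic protease, was at 190 and 221 CPM against 38.9 and 41.5 in Aire-high mTEC (2.36 ± 0.34, adjusted p = 0.00426), but keratinocyte-like cells had 513 and 472. Cd63, a tetraspanin of multivesicular bodies, was at 490 and 964 CPM and was called only against tuft-like (3.95) and keratinocyte-like cells (2.02). Rab27a and Rab27b, GTPases of secretory granules, were called higher than in Aire-high mTEC (2.26 and 2.92), from 13 and 7 UMIs of the first and 5 and 16 of the second. Rab27b held its call in 6 of 12 alternatives, with a fold as low as 0.95. Syt7, a calcium sensor of lysosome exocytosis, had 33 and 13 UMIs in members and 0 in tuft-like cells, at least 22.6-fold higher. The annexin genes Anxa4 and Anxa11 were lower than in tuft-like cells (-2.03 and -1.25, the second held in 6 of 12 alternatives), and Anxa1 lower than in keratinocyte-like cells (-1.72).

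Most enterocyte and hepatocyte genes outside the rule were called higher in members. Of 13 tested, 9 were higher than in Aire-high mTEC (median 3.24), 12 than in tuft-like cells and 11 than in keratinocyte-like cells, and none was lower. The medians against the last 2 classes were 7.57 and 5.11, or 5.51 and 4.46 with the genes at 0 in a comparator set to their bounds. Without the cells that held blood cell UMIs, 5, 6 and 5 of 8 tested were higher. Apob, Sult1c2 and Reg3g were among those not called against Aire-high mTEC (0.29, 0.20 and 4.19). Fabp1 was among the genes that chose the cells, and the counts are not independent of it. Krt20, an intermediate filament gene of differentiated gut epithelium, had 158 and 51 UMIs in 19 and 26 members, or 316 and 185 CPM, and no cell held over 23.4% of a library's. The log2 fold change over Aire-high mTEC was 2.70 ± 0.24 (adjusted p = 0.00183), over keratinocyte-like cells 4.57 ± 0.32 (0.00165), and tuft-like cells held none, at least 103-fold lower.

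Apoc3, an apolipoprotein gene of liver and gut, was at 406 and 511 CPM in 10 and 17 members. It was called against all 3 classes (4.01, 4.33 and 5.11), with 62.1% and 66.0% of its UMIs in 1 cell. Muc13, a membrane mucin gene, was at 444 and 127 CPM in 22 and 12 members (4.60, 5.51 and 3.29). Fabp2 gave 218 UMIs in library 1, of which 1 cell held 82.1%, and 3 in library 2. The brush border genes Vil1 and Cdhr5 were called in all 3 comparisons (2.82, 1.66 and 4.28 for Vil1, 3.24, 1.47 and 3.22 for Cdhr5). Reg3g, an antimicrobial lectin gene, was at 9540 and 7966 CPM in 25 and 46 members and had log2 fold changes of 4.19, 4.93 and 2.75, none of which was called (adjusted p = 0.067, 0.0524 and 0.244).

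Members with and without Fabp1 are described side by side, with no test, since Fabp1 chose them. Apoa1 was detected in 5 of 21 Fabp1-positive and 2 of 19 other members of library 1, and in 13 of 22 and 0 of 42 in library 2. Apoa4 was detected in 61.9% of Fabp1-positive and 15.8% of other members in library 1, and in 36.4% and 28.6% in library 2. For Apoc3 the order differed between libraries, at 42.9% and 5.26% in library 1 and 22.7% and 28.6% in library 2. Spib was found in 11 of 21 and 13 of 19 in library 1 and in 13 of 22 and 23 of 42 in library 2. Spib was thus found in members with Fabp1 as well as in those without it. Ccl6 was detected in 6 of 22 Fabp1-positive and 36 of 42 other members of library 2, and in 15 of 21 and 13 of 19 in library 1; a member without Fabp1 needs more of the other rule genes.

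Lineage factors of mimetic epithelium moved in both directions. Of 15 tested, 4 were higher and 3 lower than in Aire-high mTEC (median -0.12, mean 0.13), 2 higher and 5 lower than in tuft-like cells, and 1 higher and 3 lower than in keratinocyte-like cells. The shares of all genes called in either direction were 16.5%, 16.4% and 7.26%. Hnf4g, encoding an enterocyte nuclear receptor, was at 120 and 54.3 CPM and called higher against all 3 (2.37 ± 0.40, 3.34 ± 0.53 and 2.20 ± 0.47). Its relative Hnf4a had 1 UMI in each library and was not tested. Elf3, an epithelial ETS factor gene, was higher than in Aire-high mTEC (2.42) and lower than in tuft-like cells (-1.24, held in 8 of 13 alternatives). Pou2f3, the tuft cell regulator, was lower than in tuft-like cells (10.0 and 29.0 CPM against 194 and 157, -3.08), with the library 2 UMIs in 1 cell. Grhl1 and Gata3 were lower than in keratinocyte-like cells (-2.86 and -3.42). The genes lower than in Aire-high mTEC were Insm1 (-1.80, held in 5 of 12 alternatives), Fezf2 (-1.41, held in 8 of 13), a regulator of self-antigen expression in mTEC, and Pax1. Pax1 had 3 UMIs, a ratio of 6.70 lower with a counting interval of 2.27 to 32.7.

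Foxn1, the master regulator of thymic epithelium whose promoter was edited in these mice, had 26 and 23 UMIs in members. They lay in 6 and 8 cells, and 80.8% and 65.2% were in 1 cell. Member levels were 52.0 and 83.3 CPM, against 133 and 143 in Aire-high mTEC, 8.38 and 49.3 in tuft-like cells and 74.0 and 54.9 in keratinocyte-like cells. No difference was called (-1.07 ± 0.47 with adjusted p = 0.158, 1.67 ± 0.59 with 0.0932, and 0.25 ± 0.53 with 0.841). Against Aire-high mTEC 3 of 12 alternatives called it lower, with folds from -3.33 to 0.03, and against tuft-like cells 2 of 12 called it higher. The 3' counts lie outside the edited promoter and do not check the deletion.

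E2F factors drive genes of DNA replication and are held back by Rb proteins. Of 22 tested genes of this network, 3 were higher and 4 lower than in Aire-high mTEC (median -0.95), and 5 were higher than in tuft-like cells. None was called against keratinocyte-like cells by edgeR, where 2 had an unadjusted p under 0.05. Beside these counts, 16.5%, 16.4% and 7.26% of all genes were called in the 3 comparisons. Network genes higher than in Aire-high mTEC were the cyclin-dependent kinase inhibitor genes Cdkn1a, Cdkn2a and Cdkn2b. Against tuft-like cells they were these and the D-type cyclin genes Ccnd1 (2.73) and Ccnd2 (3.39), which drive entry into the cell cycle. Cdkn1a, encoding p21, was at 735 and 645 CPM against 207 and 141 in Aire-high mTEC (2.02 ± 0.22, adjusted p = 0.0022) and 500 and 354 in tuft-like cells (0.97 ± 0.22, 0.0205), the latter call held in 9 of 13 alternatives. Keratinocyte-like cells had 909 and 925. Cdkn2a and Cdkn2b were called against the same classes (1.87 and 2.39, 1.60 and 2.32). The lower genes were Top2a, Cdk1 and Rrm2, of mitosis and DNA synthesis, and the E2F partner Tfdp1 (-1.49). Mcm3, Mcm5, Pcna and Mki67, also replication or mitosis genes of the list, were tested and not called against Aire-high mTEC. Top2a was at 10.0 and 29.0 CPM against 169 and 177 (-3.47 ± 0.90, 0.0359), a call that held in 7 of 13 alternatives, with folds from -4.98 to -1.60. Tfdp1 held in 8 of 12. Cdk1 had 2 UMIs, a ratio of 19.9 lower with a counting interval of 5.47 to 164, and Rrm2 had none, at least 8.90-fold lower than Aire-high mTEC. Both calls held in 7 of 11 alternatives. E2f1, E2f3, E2f6, E2f7 and E2f8 had too few counts to be tested.

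Among called genes at 100 CPM or more in members, the 10 with the largest rise over Aire-high mTEC included Serpinb6a, Gucy1b2 and Wfdc17. Serpinb6a, a serine protease inhibitor gene (chr13:33917918-34002794, minus strand), was at 8327 and 5079 CPM in 34 and 50 members. The other classes ranged from 103 to 336 CPM, and the log2 fold changes were 4.61 ± 0.30, 5.07 ± 0.31 and 5.89 ± 0.32 (adjusted p = 0.00111, 0.000199 and 0.000284). The antisense gene 1110046J04Rik (chr13:33935567-33960181, plus strand) lies within it and was called as well (4.11, 5.73 and 7.50). Whether counting used strand is not given in the sources used here, so it is not known whether reads of the pair were kept apart. Related Serpinb copies may share reads. Gucy1b2, a guanylate cyclase subunit gene (chr14:62392676-62456289), was at 486 and 587 CPM in 7 and 36 members. It was at 29.8 and 12.5 CPM in Aire-high mTEC (4.72 ± 0.41, 0.00232) and had no UMI in the other 2 classes, at least 199-fold and 218-fold lower. Wfdc17, a secreted whey acidic protein domain gene, was at 1457 and 2742 CPM (4.77, 4.09 and 4.13), and Tstd1 was called with 4.11, 4.74 and 4.50. In each library 1 cell held a large part of some of these sums. It held 58.8% and 11.1% of the Gucy1b2 UMIs, 30.9% and 61.8% for Wfdc17 and 42.1% and 56.25% for Tstd1. For Serpinb6a the shares were 37.5% and 23.8%, and for 1110046J04Rik 50% and 76.2%.

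Several others of the largest rises also had a large part of their UMIs in 1 cell. Iapp, which encodes the islet hormone amylin, was at 2104 and 1753 CPM in 11 and 14 members, with 62.7% and 62.0% of UMIs in 1 cell (4.62 ± 0.58 over Aire-high mTEC, adjusted p = 0.00286). Spink4, a goblet cell protease inhibitor gene, was found in 11 and 2 members with 54.97% and 98.5% in 1 cell (5.72). Guca2b, encoding uroguanylin, had no UMI in tuft-like cells, at least 101-fold lower (5.24 over Aire-high mTEC). Prap1 and Gsto1 were called with 5.05 and 5.03. Without the cells that held blood cell UMIs neither was called, and their lowest folds over the alternatives were 3.21 and 2.44. Gsto1 was also not called without the members that met another class rule, and it stood at 1464 and 1303 CPM in keratinocyte-like cells (-0.69, adjusted p = 0.505).

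The genes with the largest fall from Aire-high mTEC were at most 87.2 CPM in tuft-like and keratinocyte-like cells too. Tbata, a thymic epithelial gene, had 715 and 893 CPM in Aire-high mTEC (-5.22 ± 0.56, adjusted p = 0.00211). Gm36899 had no UMI in members, at least 39.4-fold lower, and Dppa3 had 1, a ratio of 147 with a counting interval of 26.4 to 5823. S100a2 and Actn3 had 2 and 3 UMIs, with ratios of 47.5 (13.1 to 392) and 36.2 (12.4 to 176). Cxcl13, Spp1, Pcp4, Crip3 and Crabp1 fell by 5.08, 4.75, 4.62, 4.59 and 4.49 on the log2 scale. Hmgn1, a nucleosome-binding protein gene, was lower than in all 3 classes, at 78.1 and 65.2 CPM against 178 to 289 (-1.84 ± 0.25, -1.05 ± 0.25 and -1.50 ± 0.25).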

How the data were processed

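Raw UMI counts of 32285 genes per barcode, deposited by the authors as 1 matrix per library, were used as they stood. The file headers name Cell Ranger 6.0.0, while the submitters' processing notes list Cell Ranger 7, Seurat 4 and the mm10 build; the strand setting of the counting is not given in the sources used here. The members and gene lists were chosen with earlier results of these data known.

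Counts were summed per library and class (8 sums, members taken out of the comparators). Tests used edgeR 4.0.16 in R 4.3.3 (glmQLFit and glmQLFTest, TMM scaling, filterByExpr, library as block, 3 residual degrees of freedom, common biological coefficient of variation 0.225), with Benjamini-Hochberg adjustment over 9368 genes. The 30 genes of the class rules and 13 mitochondrial genes were left out of the tests and kept in library sizes. Every class comes from both libraries, so same-numbered sums share a library by design, and the library was the block. The code was tested on simulated data. Fibroblasts (collagen at 20 UMIs per 10000 or more, a Dcn UMI and no epithelial UMI) gave the level of free RNA. Intervals are exact binomial at 95% and cover counting error only, as do the floors of 3 counts over both libraries. A cell was thinned to 1000 UMIs by drawing UMIs at random with a fixed seed.

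Named genes were the 14 rule genes; from each of 9 lists up to 4 called genes per direction against Aire-high mTEC and 2 per direction against the others, by size of fold; the 10 largest rises and falls against Aire-high mTEC at 100 CPM or more; up to 10 genes higher and 5 lower against all 3; and Spib, Sox8, Tnfaip2, Tnfrsf11a, Relb, Foxn1 and Hnf4a. Reg3g, Nfkb2, Nfkbia, Birc3, Aif1 and further list genes outside that rule were named after their values were seen. Alternatives were DESeq2 1.42.0, no filter, no block, stricter or altered cell rules, a 5% mitochondrial limit, thinning and each library left out. Gene positions are from the mm10 annotation, promoters from RefSeq (GRCm38.p6).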

Additional observations from a re-analysis of the deposited data

How the results depend on the processing

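Gene calls against Aire-high mTEC, tuft-like and keratinocyte-like cells were 1550, 1539 and 680. Without cells holding blood cell UMIs they were 385, 590 and 158, with 4719 genes tested, and 78.5% of the last were higher, against 61.6% in the full data. Thinned to 1000 UMIs per cell they were 272, 294 and 189 of 1702 genes. Without a count filter they were 2370, 2148 and 1323, and the median fold shifted by -0.83, -0.01 and -0.15. DESeq2 called 758 higher and 503 lower against Aire-high mTEC. Without the replicate block the counts were 1334, 1378 and 576. Without members that met another class rule, chosen after seeing the data like the settings without the 3 deepest cells and with Ccl20 or Gp2 only, 1109 genes were called against keratinocyte-like cells. With 1 library left out no residual degrees of freedom remained, so folds have no test. Of 70, 61 and 41 named calls, those lost were 30 of 59, 20 of 51 and 18 of 33 tested without blood-UMI cells (against Aire-high mTEC, Spib, Tnfaip3, Cxcl16, Ccl21a, Cxcl9, Ciita, H2-DMb2, H2-Oa, Elf3, Apoa4, Spink4, Prap1, Gsto1 and Wfdc17 among them), 18, 5 and 1 without other-class members, 14, 2 and 4 without the 3 deepest cells, and 0, 1 and 0 with Fabp1 out of the rule. Cxcl5 (-5.28, at least 4 rule genes) and Ehf (-0.22, at least 40 UMIs per 10000) changed sign against Aire-high mTEC. The causes were not tested.

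The 104 members became 61 with at least 4 rule genes (mean share 0.576%), 68 with at least 5 epithelial UMIs (0.674%), 43 without blood-UMI cells (0.349%) and 69 at 1000 UMIs per cell (0.601%). Single libraries gave 40 to 64.

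Of 351 list counts under the alternatives, 277 stayed within 1.5 times with both directions added. Those of the M cell programme did, but without blood-UMI cells its genes higher than in Aire-high mTEC fell from 12 to 7 and those lower rose from 1 to 2. The others follow as genes called, higher or lower, against Aire-high mTEC, tuft-like and keratinocyte-like cells in that order unless one is named. Without blood-UMI cells RANK and NF-kB genes had 0, 6 and 3, chemokines 2, 2 and 0, vesicle genes 2, 5 and 1, enterocyte genes 5, 6 and 5; MHC class II had 0 and 1 and lineage factors 1 and 0 (Aire-high, keratinocyte-like), MHC class I 0 (Aire-high), and E2F genes 1 and 1 (Aire-high, tuft-like). Thinned, RANK genes had 0, 4 and 2, chemokines 5, 0 and 1, MHC class II 4, 6 and 3, lineage factors 2, 3 and 0; MHC class I 0 and 1, vesicle 4 and 4 and E2F 2 and 0 (Aire-high, tuft-like); enterocyte 6 and 6 (tuft-like, keratinocyte-like). Without a filter chemokines had 16, 16 and 10, MHC class I 4 (keratinocyte-like), lineage factors 11 and 7 (tuft-like, keratinocyte-like) and E2F 12 and 2 (Aire-high, keratinocyte-like). At 5% mitochondrial UMIs chemokines had 14 (tuft-like), MHC class I 3 and vesicle 3 (keratinocyte-like). With at least 4 genes chemokines had 7 (keratinocyte-like), MHC class I 1 and 3 (Aire-high, keratinocyte-like) and E2F 3 (tuft-like). Without other-class members chemokines had 7 (keratinocyte-like), MHC class II 5 (Aire-high), MHC class I 0 and 4 and lineage factors 3 and 7 (Aire-high, keratinocyte-like), and E2F 3 (Aire-high). Without the replicate block MHC class II and vesicle had 3 each (keratinocyte-like) and E2F 3 (tuft-like). At 40 UMIs per 10000 MHC class I had 1 and 1 (Aire-high, keratinocyte-like) and lineage factors 7 (keratinocyte-like). Without the 3 deepest cells MHC class I had 1 and 2 (Aire-high, keratinocyte-like), lineage factors 3 and E2F 3 (Aire-high). DESeq2 gave MHC class I 1 and 3, and members with Ccl20 or Gp2 only gave it 1 (keratinocyte-like). No list count had a test.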
